A study of Rattus norvegicus with 16 samples.

Results

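The 10 genes described here, Areg, Ereg, Btc, Rgs2, Runx1, Pgr, Ptgs2, Has2, Tnfaip6 and Ptx3, are genes that follicles switch on after the surge of luteinizing hormone (LH). They were chosen by name, as probes that the array files assign to a listed gene, out of 21330 named genes with a probe on the array. The list had 14 probes, and each gene was read by its probe with the highest mean over all arrays. The question was whether any of these juvenile ovaries had met an LH surge.

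LH acts on its receptor in theca cells and in the mural granulosa cells of large follicles, where it raises cyclic AMP. The granulosa cells then release ligands of the EGF receptor, which carry the signal to the cumulus cells around the oocyte, and a matrix of hyaluronan is built before the follicle wall breaks. The response is brief, and the cells that remain turn into a corpus luteum, which makes progesterone.

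Ovaries came from 16 female rats of the Jcl:SD (Sprague-Dawley) stock, with 1 single-colour Agilent array per animal, in 4 groups of 4. These were BRCA1+/- rats given olaparib, BRCA1+/- rats given vehicle, wild-type (WT) rats given olaparib and WT rats given vehicle. Olaparib, an inhibitor of poly(ADP-ribose) polymerases, was given under the skin at 50 mg/kg, once a day for 14 days from 3 weeks of age, and ovaries were removed 24 h after the last dose. The labels give no gonadotropin treatment and no cycle stage, and the make-up of the vehicle, the scheme of the vehicle animals and the site of the change in BRCA1+/- rats are not given in the sources used here. Values are log2 signals in which 0 is the 75th percentile of the array, a signal of 200.4 to 560.8 intensity units, and are listed for replicates 1 to 4 of a group in that order. Between 55.5% and 60.7% of probes were well above background on an array, no spot was saturated, and Pearson r between arrays was 0.902 to 0.992. Brca1 averaged -1.1 ± 0.31 in BRCA1+/- rats with vehicle and -0.43 ± 0.36 in WT rats with vehicle (SD, n = 4 each), a difference with a limma adjusted p of 0.862.

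Granulosa markers (7 genes) and theca and interstitial markers (6 genes) were present on every array, with summed levels on the log2 scale of 7.80 to 9.08 and 9.78 to 11.1. On 6 arrays the mean of 9 oviduct and ciliated epithelium markers, each centred over the 16 arrays, lay above 0. The score was 2.75 and 1.67 in replicates 3 and 4 of BRCA1+/- rats with olaparib, and 3.64 and 1.38 in replicates 3 and 4 of BRCA1+/- rats with vehicle. It was 3.58 and 3.27 in replicates 1 and 3 of WT rats with olaparib, and -2.38 to -0.77 on the other 10 arrays, among them all 4 of WT rats with vehicle. Of these 6 arrays 5 were on slide 2, which held replicates 3 and 4 of every group, and they are called the arrays with oviduct signal below. Each group also took the same column of both slides, so the position on a slide and the group cannot be told apart. In such whole-ovary RNA, fewer cells of a type and less RNA per cell cannot be told apart.

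Of the 10 genes, 9 were well above background on some array and 4 (Areg, Ptx3, Rgs2 and Runx1) on all 16. Btc was above background nowhere. No ovary had more than 3 of the 9 detected genes among its gene's 3 highest arrays. The 3 ovaries that reached 3 genes had Areg, Ptx3 and Rgs2 in BRCA1+/- vehicle replicate 1, Ptgs2, Pgr and Tnfaip6 in BRCA1+/- vehicle replicate 3, and Ptgs2, Tnfaip6 and Ptx3 in WT olaparib replicate 3. Replicates 1 and 2 of BRCA1+/- rats with olaparib and replicate 3 of WT rats with vehicle had none.

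**Figure D1:**
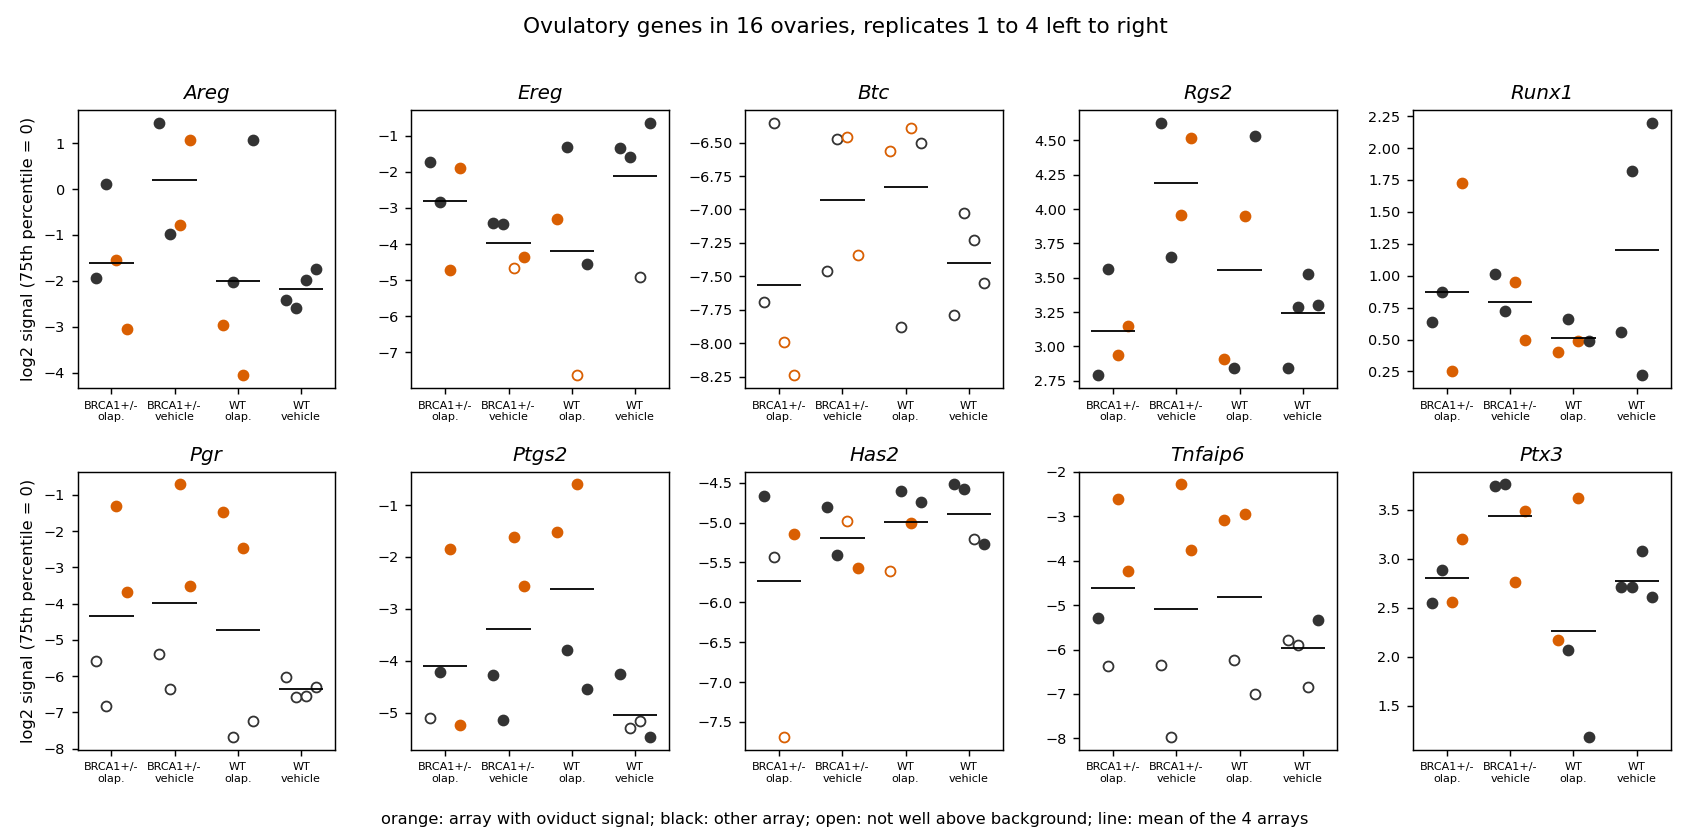
Log2 signal (vertical axes, 0 = 75th percentile of the array, scale differs between panels) of the 10 genes in each ovary, by group. Each point is 1 array, orange points are the 6 arrays with oviduct signal, open points were not well above background, and lines are means of 4 arrays. Areg and Rgs2 share their 3 highest arrays, whereas Pgr is above background on orange arrays only.

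Areg encodes amphiregulin, a ligand of the EGF receptor that granulosa cells shed after LH. Its probe lies on the minus strand of chromosome 14, at 18466438 to 18466497 of the rat build rn4, on the same chromosome as those of Ereg (18521343 to 18522341, minus strand) and Btc (18233596 to 18233655, plus strand). Areg read -1.93, 0.12, -1.55 and -3.06 in BRCA1+/- rats with olaparib, and 1.45, -0.99, -0.79 and 1.08 in BRCA1+/- rats with vehicle. It read -2.96, -2.03, -4.06 and 1.07 in WT rats with olaparib, and -2.42, -2.60, -1.98 and -1.75 in WT rats with vehicle. Only 3 ovaries stood above 1, replicates 1 and 4 of BRCA1+/- rats with vehicle and replicate 4 of WT rats with olaparib, and the highest array was 45.7-fold above the lowest. The 4 WT vehicle ovaries lay within 0.85 log2 units, and every BRCA1+/- vehicle ovary was above all of them. How many of all features separate these groups as fully was not determined, and Areg was not called between them.

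Ereg encodes epiregulin, another such ligand, and its order of ovaries was different. It read -1.72, -2.83, -4.73 and -1.91 in BRCA1+/- rats with olaparib, and -3.41, -3.45, -4.66 and -4.35 in BRCA1+/- rats with vehicle. In WT rats it read -3.32, -1.33, -7.63 and -4.54 with olaparib and -1.34, -1.58, -4.90 and -0.64 with vehicle. It was highest in WT vehicle replicate 4, and replicate 3 of BRCA1+/- vehicle, WT olaparib and WT vehicle was not well above background. The 3 ovaries high in Areg were at -3.41, -4.35 and -4.54 for Ereg, all below its median of -3.36 over the 16 arrays. Btc, which encodes betacellulin, the third ligand of this kind induced in the follicle, lay between -8.24 and -6.35 on all 16 arrays, without a signal well above background, so that its groups have no measured order.

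Rgs2 encodes a regulator that limits G protein signalling, and its probe lies on chromosome 13 (57891896 to 57891955, minus strand, rn4). It read 2.79, 3.56, 2.94 and 3.15 in BRCA1+/- rats with olaparib and 4.63, 3.65, 3.96 and 4.52 in BRCA1+/- rats with vehicle. WT ovaries had 2.91, 2.84, 3.95 and 4.53 with olaparib and 2.84, 3.29, 3.53 and 3.30 with vehicle. All 4 BRCA1+/- vehicle ovaries lay above all 4 BRCA1+/- olaparib ovaries and above all 4 WT vehicle ovaries. The share of all features that separate as fully was not determined, and Rgs2 was called in neither comparison. A second Rgs2 probe (57890951 to 57891010) had the same 3 ovaries highest, at 3.31, 3.5 and 3.31, but there the groups overlapped, with 2.72 in BRCA1+/- olaparib replicate 2 and 2.40 in BRCA1+/- vehicle replicate 3.

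The promoters of Areg, Rgs2 and Ptgs2 are shown as examples, and any part of their motifs in the levels of these genes was not tested. The sequences are RefSeq's for the rat build GRCr8, 250 bases before and 50 after the gene's start, written in the direction of the gene, and 8 of the 10 genes had an entry (not Ereg and Has2). Capitals mark, on either strand, the cyclic AMP response element (TGACGTCA) and the TATA box (TATAAA) in Areg, the core of the response element (TGACG, here as its reverse complement) in Rgs2, and the C/EBP motif (TTNNGNAA) and the E-box (CACGTG) in Ptgs2. They lie at chr14:17265592-17265891 (minus strand) for Areg, chr13:58352617-58352916 (minus strand) for Rgs2 and chr13:64713813-64714112 (plus strand) for Ptgs2.
Areg: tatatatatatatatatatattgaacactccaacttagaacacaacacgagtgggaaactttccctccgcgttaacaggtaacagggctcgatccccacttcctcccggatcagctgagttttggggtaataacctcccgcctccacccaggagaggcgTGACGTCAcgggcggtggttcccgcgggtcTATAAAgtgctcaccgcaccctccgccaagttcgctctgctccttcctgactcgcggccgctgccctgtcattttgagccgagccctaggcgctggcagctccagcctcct
Rgs2: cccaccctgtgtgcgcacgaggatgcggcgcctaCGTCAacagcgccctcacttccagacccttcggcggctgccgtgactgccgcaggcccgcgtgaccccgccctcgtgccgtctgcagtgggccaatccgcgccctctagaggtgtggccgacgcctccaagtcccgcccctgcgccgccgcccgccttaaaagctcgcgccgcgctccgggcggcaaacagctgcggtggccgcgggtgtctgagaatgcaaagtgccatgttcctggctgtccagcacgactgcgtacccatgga
Ptgs2: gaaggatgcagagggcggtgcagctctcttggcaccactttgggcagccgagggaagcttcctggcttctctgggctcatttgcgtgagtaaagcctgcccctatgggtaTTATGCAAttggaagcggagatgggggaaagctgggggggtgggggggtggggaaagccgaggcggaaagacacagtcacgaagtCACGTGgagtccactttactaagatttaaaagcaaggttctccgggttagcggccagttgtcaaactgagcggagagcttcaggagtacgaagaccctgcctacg

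In Areg the full cyclic AMP response element starts at -91 from the gene's start and the TATA box at -61. The full element occurred in 1 of the 8 promoters and in 1.83% of all 33469 rat promoters of this length. The core TGACG, which the full element holds on both strands, occurred in 2 of the 8, Areg and Rgs2 (at -216), and in 21.2% of all promoters. The C/EBP motif, at -140 in Ptgs2, was found in 3 of the 8 (Ptgs2, Tnfaip6 and Ptx3) and in 41.3% of all, and the E-box, at -55 in Ptgs2, in 1 of the 8 and in 6.42%. A GC box (GGGCGG), not marked above, was found in 5 of the 8 (Ptgs2, Areg, Btc, Pgr and Rgs2) and in 33.1%. A TATA box was found in 2 (Areg and Pgr) and in 14.2%, and an AP-1 motif (TGANTCA) in 1 (Tnfaip6) and in 7.33%. These matches are letters in the sequence and not measured binding.

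The genes whose levels followed Areg and Rgs2 most closely over the 16 arrays included transcription factors of the early response. For Areg they were Fosl1 (Pearson r 0.94), Acp3 (0.92) and Ramp2 (0.91), and for Rgs2 they were Fosb (0.93), Fos (0.92) and Nab2 (0.90). Edn2, a vasoconstrictor peptide gene that granulosa cells switch on at ovulation, was chosen after its values were seen. It read -3.68, 0.44, -3.82 and -0.91 in BRCA1+/- rats with olaparib, and 3.13, -3.90, -0.01 and 3.95 in BRCA1+/- rats with vehicle. The WT readings were -4.60, -4.26, -4.05 and 3.48 with olaparib, and -4.32, -0.58, -4.10 and -0.38 with vehicle. Its 3 highest ovaries were the 3 highest for Areg, with a gap down to 0.44 for the next. Hbegf, Fosb and Egr2, looked at in the same way, also had their 3 highest values in these ovaries, and Adm, which encodes the vessel-relaxing peptide adrenomedullin, shared 2 of its 3. None of the 3 ovaries had Runx1, Ereg, Pgr, Ptgs2, Has2 or Tnfaip6 among the gene's 3 highest.

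Runx1 encodes a transcription factor that LH induces in granulosa cells, and its probe lies on chromosome 11 (32623591 to 32623650, minus strand, rn4). It read 0.64, 0.87, 0.25 and 1.73 in BRCA1+/- rats with olaparib, and 1.01, 0.72, 0.95 and 0.50 in BRCA1+/- rats with vehicle. In WT rats it read 0.40, 0.66, 0.49 and 0.49 with olaparib, and 0.56, 1.82, 0.22 and 2.20 with vehicle. Here 3 ovaries stood above the other 13, replicate 4 of BRCA1+/- rats with olaparib and replicates 2 and 4 of WT rats with vehicle. The second Runx1 probe (32620076 to 32620135) did not share this order, with -3.15, -3.89 and -2.93 in these 3 ovaries and -2.70, its highest value, in WT olaparib replicate 3.

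The same 3 ovaries had the lowest Cyp17a1 and Cyp19a1, a pair of genes of androgen and estrogen synthesis that fall after an LH surge. Cyp17a1 read -1.92 in BRCA1+/- olaparib replicate 4 and -1.56 and -1.73 in replicates 2 and 4 of WT rats with vehicle, and 3.71 to 6.42 on the other 13 arrays. Cyp19a1 was at -4.10, -4.74 and -5.29 in them, the last not well above background, and -3.41 or above on the others. The mean of the 10 genes that LH lowers, each centred over the 16 arrays and Cyp17a1 among them, was -0.75, -0.61 and -0.86 there. It was -0.37 or above on the other arrays. Since this mean includes Cyp17a1, it is not separate from the low values of that gene, and the mean without Cyp17a1 was not determined. The summed level of these 10 genes, 8.61, 8.88 and 8.66, lay within its range on the other arrays (8.28 to 9.88). Timp1, an LH-induced inhibitor of metalloproteases, was highest in the same 3 ovaries, at 7.26, 6.91 and 7.15. So was Adcyap1, which encodes the peptide PACAP, at -1.32, 0.04 and -2.67, with the next ovary close at -3.02. The neutrophil marker S100a9 was at 1.39, 1.03 and 0.85, with the next ovary, WT olaparib replicate 4, close at 0.62. Most of the lists that hold Timp1 and Adcyap1 did not stand out in these ovaries. The centred mean of the 20 other LH-induced genes was 0.09, 0.01 and 0.14 (-1.26 to 0.52 over all arrays). That of the 13 LH receptor and meiotic arrest genes was -0.24, -0.09 and -0.12 in the same ovaries (-0.27 to 0.50 over all arrays). Ptgs2 was among its lowest values there (-5.24, -5.30 and -5.47), and Areg was at -3.06, -2.60 and -1.75. Ereg was at -1.91, -1.58 and -0.64, all 3 among its 6 highest arrays. Cyp19a1, S100a9 and Fpr1 were chosen after their values were seen. The neutrophil list had 3 of 7 genes tested, and their mean, each gene centred over the 16 arrays, was 1.97, 1.42 and 1.40 in the 3 ovaries but also 1.35 in WT olaparib replicate 4, where Runx1 was at 0.49. Of the 3 genes Fpr1 differed by 1.76 and S100a9 by -1.17 between BRCA1+/- and WT with vehicle, in opposite directions. The list's summed level ran from -1.16 to 1.94 in BRCA1+/- olaparib, -1.39 to -0.70 in BRCA1+/- vehicle, -1.95 to 0.97 in WT olaparib and -2.0 to 1.54 in WT vehicle ovaries. The part of neutrophils in the Runx1 values was not tested. The genes most like Runx1 over the 16 arrays were Mvb12a (r 0.95), Shf (0.89) and Fmo5 (0.89). Without the 2 arrays farthest from the Runx1 median these r values were 0.91, 0.73 and 0.81.

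**Figure D2:**
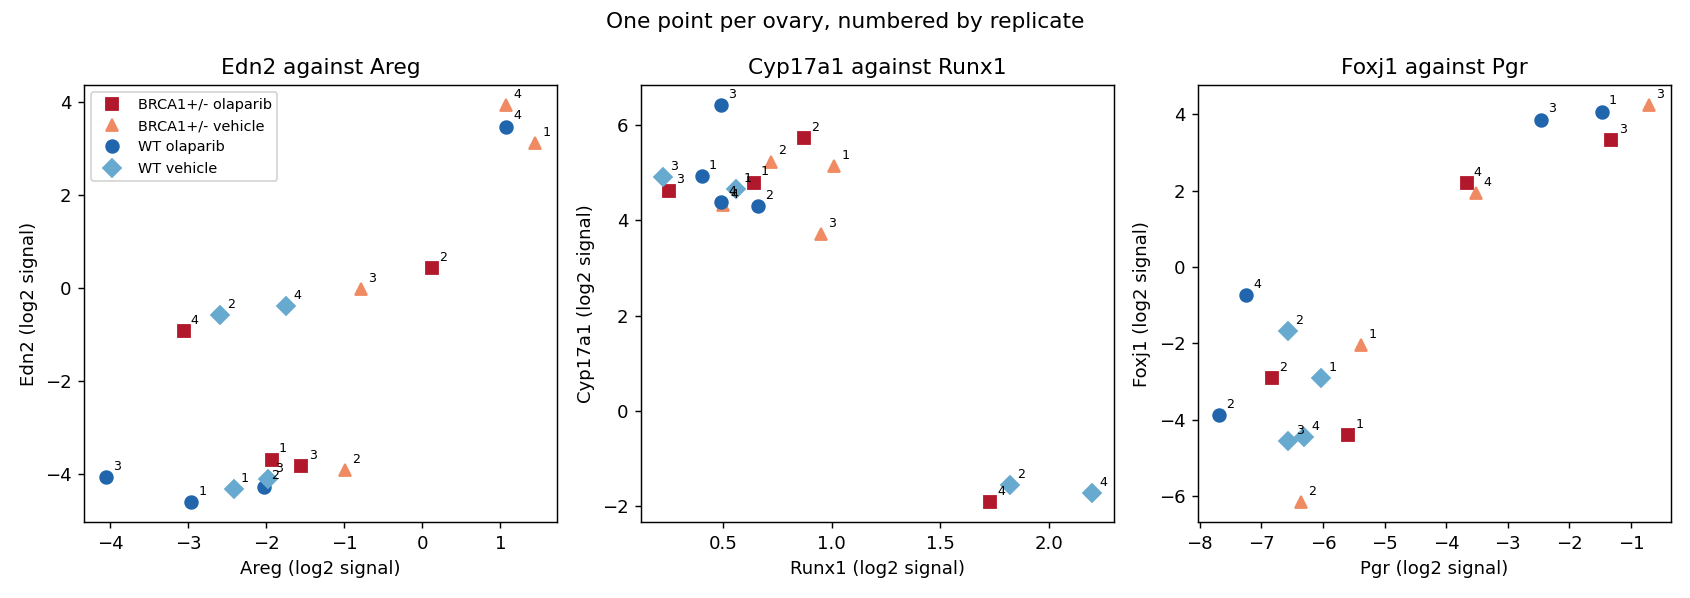
Log2 signals of 3 of the genes (horizontal axes) against a second gene (vertical axes) in the 16 ovaries, with 1 point per ovary, numbered by replicate, and colour and shape by group. Edn2 is at 3.13 or above only in the 3 ovaries where Areg is at 1.07 or above, Cyp17a1 is below 0 only in the 3 ovaries where Runx1 is at 1.73 or above, and Foxj1 is at 1.93 or above only in the 6 ovaries where Pgr is at -3.67 or above. The plotted partners were chosen after their values were seen.

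Pgr, Ptgs2 and Tnfaip6 were highest in another set of ovaries. Pgr encodes the progesterone receptor, which granulosa cells express for a short time after LH and which the oviduct also expresses (probe on chromosome 8, 5845716 to 5845775, plus strand, rn4). It read -5.59, -6.83, -1.32 and -3.67 in BRCA1+/- rats with olaparib, and -5.38, -6.35, -0.71 and -3.52 in BRCA1+/- rats with vehicle. WT ovaries had -1.48, -7.68, -2.47 and -7.24 with olaparib, and -6.03, -6.57, -6.56 and -6.31 with vehicle. It was well above background on the 6 arrays with oviduct signal (-3.67 to -0.71) and on none of the other 10 (-7.68 to -5.38). Since no WT vehicle array had a signal well above background and no group had 3 that did, Pgr was not tested. For a rough comparison each WT vehicle array was set at the lowest signal that counted as well above background on it. Against that level the mean reading was 2.02-fold higher in BRCA1+/- olaparib, 2.60-fold higher in BRCA1+/- vehicle and 1.57-fold higher in WT olaparib ovaries. These are not lower bounds, since the 2 dim arrays of each of these groups kept their own readings, which are not well above background. The 2 measured arrays of each group were those with oviduct signal.

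Tnfaip6 encodes a protein that links hyaluronan chains in the cumulus matrix, and the array files give no position for its probe. It read -5.28, -6.38, -2.60 and -4.23 in BRCA1+/- rats with olaparib, and -6.35, -7.97, -2.28 and -3.76 in BRCA1+/- rats with vehicle. The WT readings were -3.09, -6.23, -2.94 and -7.01 with olaparib, and -5.78, -5.90, -6.85 and -5.33 with vehicle. Its 6 highest ovaries were the 6 with oviduct signal (-4.23 to -2.28, all well above background). The other 10 lay between -7.97 and -5.28, and 2 of them were well above background.

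Ptgs2 encodes the inducible prostaglandin synthase COX-2, and its probe lies on chromosome 13 (64435202 to 64435261, plus strand, rn4). It read -5.10, -4.22, -1.85 and -5.24 in BRCA1+/- rats with olaparib, and -4.27, -5.14, -1.61 and -2.56 in BRCA1+/- rats with vehicle. In WT rats it read -1.51, -3.79, -0.60 and -4.54 with olaparib, and -4.26, -5.30, -5.16 and -5.47 with vehicle. Of the 6 ovaries with oviduct signal, 5 were its highest 5, and the other one, BRCA1+/- olaparib replicate 4, was near its lowest. It was not well above background in BRCA1+/- olaparib replicate 1 and in WT vehicle replicates 2 and 3. The 2 other Ptgs2 probes were well above background on 3 and 2 arrays, all 5 readings in ovaries with oviduct signal. The oviduct list had 9 of its 10 genes on the array, and its summed level ran from 2.62 to 7.01 in BRCA1+/- olaparib, 3.38 to 7.94 in BRCA1+/- vehicle, 2.98 to 7.70 in WT olaparib and 2.02 to 3.13 in WT vehicle ovaries. Its defining gene Foxj1, which drives the making of motile cilia, read 1.93 to 4.25 in the 6 ovaries and -0.74 or below in the other 10, and was not well above background in 2 of them. The summed level of the adipocyte list (6 of 8 genes tested) reached 3.27 in BRCA1+/- olaparib, 3.47 in BRCA1+/- vehicle, 5.77 in WT olaparib and 2.46 in WT vehicle ovaries. The mesothelium and surface epithelium list (7 of 7 tested) had its 5 highest summed levels, 7.51, 7.44, 7.12, 6.81 and 6.09, in ovaries with oviduct signal. The part of oviduct, fat or mesothelium in the values of Pgr, Tnfaip6 and Ptgs2 was not tested. The genes most like Tnfaip6 over the 16 arrays were Chdh (r 0.96), Krt15 (0.95) and Fam81a (0.95), and those most like Ptgs2 were Dyrk3 (0.92), Ckb (0.91) and Spink8 (0.91).

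For the remaining pair of matrix genes the 3 highest ovaries matched none of the sets above. Has2 encodes the synthase that makes the hyaluronan of the cumulus matrix (probe on chromosome 7, 93230435 to 93230494, minus strand, rn4) and was well above background on 11 of 16 arrays. Its group means were -5.73 ± 1.34 in BRCA1+/- olaparib, -5.19 ± 0.36 in BRCA1+/- vehicle, -4.99 ± 0.45 in WT olaparib and -4.90 ± 0.40 in WT vehicle ovaries (SD, n = 4 each), all within the spread of the arrays. The lowest array, BRCA1+/- olaparib replicate 3 at -7.69, was not well above background. Has2 was highest in WT vehicle replicates 1 and 2 and WT olaparib replicate 2, and 0 of the 6 ovaries with oviduct signal were among its 6 highest. Ptx3 encodes pentraxin 3, which holds the matrix together with the protein of Tnfaip6 (probe on chromosome 2, 156095594 to 156095653, plus strand, rn4). It read 2.55, 2.89, 2.56 and 3.20 in BRCA1+/- rats with olaparib, and 3.74, 3.76, 2.76 and 3.49 in BRCA1+/- rats with vehicle. WT ovaries had 2.17, 2.07, 3.62 and 1.18 with olaparib, and 2.71, 2.71, 3.08 and 2.61 with vehicle. It was measured in every ovary, and the lowest, WT olaparib replicate 4, was one of the 3 highest for Areg and Rgs2. The genes most like Ptx3 were Fam169b (r 0.87), Ccn2 (0.86) and Bex3 (0.85), and without the 2 arrays farthest from the Ptx3 median they were 0.77, 0.73 and 0.80. Those most like Has2 were Eef1akmt3 (0.81), Sox11 (0.78) and Rpusd2 (0.78), and without the 2 arrays farthest from the Has2 median they were 0.55, 0.36 and 0.56. For Ereg they were Fermt3 (0.97), Igsf7 l1 (0.95) and Soat1 (0.94).

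The 8 genes that passed the filter on dim probes were tested in 5 comparisons among 20430 features. With limma and Benjamini-Hochberg adjustment over all features, none of the 8 was called in any comparison, and no feature was (percent called 0 in each). In olaparib against vehicle in WT rats, 1 of the 8 had an unadjusted p under 0.05, beside 4.39% of all features. The same count was 1 of 8 for olaparib in BRCA1+/- rats, beside 1.17%, and 2 of 8 for BRCA1+/- against WT with vehicle, beside 5.48%. It was 0 of 8 for BRCA1+/- against WT with olaparib, beside 0.92%, and 2 of 8 for the interaction (the BRCA1+/- olaparib difference less the WT one), beside 3.45%. In the same order the median difference of the 8 genes was 0.05, -0.59, 0.77, 0.28 and -0.56 on the log2 scale, where that of all features was -0.07, 0.02, -0.06, 0.02 and 0.08. Comparisons that share a group are not independent of each other.

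The differences with an unadjusted p under 0.05 belonged to Ptgs2, Areg and Rgs2. In WT rats Ptgs2 averaged -2.61 ± 1.86 with olaparib and -5.05 ± 0.54 with vehicle (SD, n = 4 each), a log2 difference of 2.44 (95% interval 0.38 to 4.49) with a limma adjusted p of 0.958. It was 2.13 within slide 1 and 2.75 within slide 2, 0.88 without the 6 arrays with oviduct signal, and 0.93 with another background correction (normexp). The Ptgs2 interaction was -3.15 (95% interval -6.05 to -0.24; limma adjusted p 0.967), -2.09 on slide 1 and -4.21 on slide 2, -0.84 without the same 6 arrays and -1.24 with normexp. None of these passed, and the size of both Ptgs2 differences moved with either alternative.

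With vehicle Areg averaged 0.19 ± 1.26 in BRCA1+/- rats and -2.19 ± 0.39 in WT rats (SD, n = 4 each). The log2 difference was 2.38 (95% interval 0.38 to 4.38; limma adjusted p 0.862), 2.74 on slide 1, 2.01 on slide 2 and 2.42 without the 6 arrays. Rgs2 averaged 4.19 ± 0.46 in BRCA1+/- rats and 3.24 ± 0.29 in WT rats with vehicle (SD, n = 4 each). This difference was 0.95 (95% interval 0.19 to 1.71; limma adjusted p 0.862), with 1.07 on slide 1 and 0.83 on slide 2. Under olaparib BRCA1+/- rats averaged 3.11 ± 0.34, which was 1.08 below BRCA1+/- rats with vehicle (difference -1.08, 95% interval -1.84 to -0.32; limma adjusted p 1.0), with -0.96 on slide 1 and -1.20 on slide 2. The Rgs2 interaction was -1.40 (95% interval -2.47 to -0.33; limma adjusted p 0.967), -0.77 on slide 1 and -2.03 on slide 2. All 4 of these differences failed the adjustment over all features, and they involve the 2 genes that share their 3 highest ovaries.

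**Figure D3:**
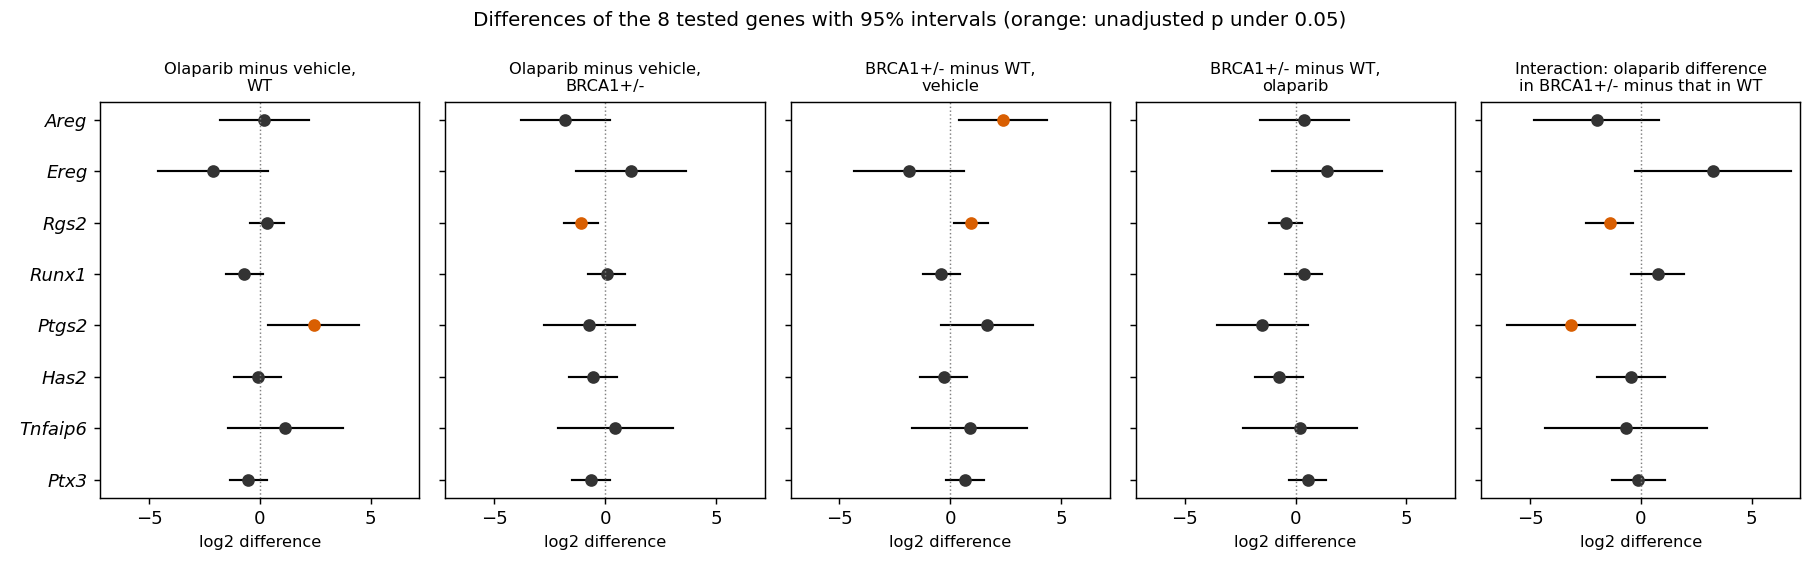
Log2 differences (points) with 95% intervals from limma (lines) of the 8 tested genes in the 5 comparisons, with the direction of each difference in its panel title. Orange points have an unadjusted p under 0.05, and none was called after adjustment over 20430 features.

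The rest of the pathway was read from 7 lists with 81 tested genes, none of which was called in any comparison. The number with an unadjusted p under 0.05 was 4 for olaparib in WT rats, 3 for olaparib in BRCA1+/- rats, 10 for BRCA1+/- against WT with vehicle, 0 for the same with olaparib and 8 for the interaction. Over all features that share was, in the same order, 4.39%, 1.17%, 5.48%, 0.92% and 3.45%. Of the LH receptor and meiotic arrest list (13 of 13 tested), Lhcgr, the LH receptor itself and chosen after its values were seen, was measured in every ovary, from -2.57 in BRCA1+/- olaparib replicate 4 to 0.83 in WT vehicle replicate 3. Nppc, the natriuretic peptide that holds the oocyte in arrest and that LH lowers, differed by -1.01 between BRCA1+/- and WT ovaries with vehicle (95% interval -1.70 to -0.33; limma adjusted p 0.862). The oocyte phosphodiesterase gene Pde3a had an interaction of -1.48 (95% interval -2.49 to -0.48; limma adjusted p 0.967), that of Adcyap1 was 2.69, and Rgs16 differed by -0.63 between BRCA1+/- and WT with olaparib (-0.26 without WT olaparib replicate 4 and -0.35 without BRCA1+/- olaparib replicate 3). In the EGF receptor list (10 of 12 tested), the feedback inhibitor Errfi1 differed by 0.60 and Tgfa by -0.70 (-0.41 without the 6 arrays with oviduct signal) between BRCA1+/- and WT with vehicle. There Erbb3 differed by 2.05 between olaparib and vehicle in WT rats, with its highest values, 0.01 and -1.24, in the 2 WT olaparib ovaries with oviduct signal (1.32 without replicate 1 of them, and 0.48 without the 6 arrays with oviduct signal), and Egf had an interaction of 0.88. For Rgs16, Tgfa and Egf the 95% interval held 0.

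Among 12 immediate early genes, which encode transcription factors and other fast products of signalling, all 12 differences lay below 0 for olaparib in BRCA1+/- rats (median -0.63) and 11 lay above 0 for BRCA1+/- against WT with vehicle (median 0.63). Over all features 52.9% and 42.2% of differences lay above 0 in these comparisons. For olaparib in WT rats 10 of the 12 lay above 0, beside 39.1% of all features, and for BRCA1+/- against WT with olaparib 10 of 12 lay below 0, where 53.1% of all features lay above it. These comparisons share groups of ovaries, and none of the 12 genes was called. Ier3 differed by 1.19 (95% interval 0.47 to 1.92; limma adjusted p 0.862) and Fosb by 2.60 between BRCA1+/- and WT with vehicle, and the interactions of Fos and Nr4a1 were -3.10 and -1.49. Of 20 tested genes among 25 other LH-induced genes, none had an unadjusted p under 0.05 in any comparison, and the nearest was Adm at 2.03 for BRCA1+/- against WT with vehicle (95% interval -0.03 to 4.10). Zbtb16 differed by 1.1 there (0.61 without BRCA1+/- vehicle replicate 1). The interactions of Timp1 and Hif1a were 1.05 and 0.58, and 0.44 and 0.24 without the 6 arrays with oviduct signal, and that of Hif1a was 0.36 without BRCA1+/- vehicle replicate 3. For Zbtb16, Timp1 and Hif1a the 95% interval held 0.

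Of 10 genes that LH lowers, Hsd17b1, which makes estradiol, differed by -0.75 (95% interval -1.29 to -0.20; limma adjusted p 0.862), Inha by -0.55 (-0.32 without WT vehicle replicate 3) and Ccnd2 by -0.28 between BRCA1+/- and WT with vehicle. Cyp17a1 differed by 3.44 (95% interval -0.19 to 7.07) between olaparib and vehicle in WT rats, with 2 of the 4 WT vehicle ovaries below 0. Of the cumulus matrix partners 6 of 11 were tested. Itih2, an inter-alpha-inhibitor chain, differed by -1.21 and the hyaluronan receptor Cd44 by 0.90 between BRCA1+/- and WT with vehicle, the synthase Has3 by -0.34 between them with olaparib (-0.22 without BRCA1+/- olaparib replicate 4, and -0.20 without the 6 arrays with oviduct signal), and the interaction of Vcan was 0.92. For Inha, Ccnd2, Cd44, Has3 and Vcan the 95% interval held 0.

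Luteal genes, known for high expression in the corpus luteum, were tested in full (10 of 10). Akr1c3 (older symbol Akr1c18), which inactivates progesterone in the rat corpus luteum, read 4.99, 7.04, 8.42 and 7.63 in BRCA1+/- rats with olaparib, and 7.70, 7.84, 8.01 and 7.92 in BRCA1+/- rats with vehicle. The WT readings were 0.87, 6.27, -4.68 and 8.55 with olaparib, and 5.45, 7.36, 8.65 and 7.22 with vehicle. It was thus at 4.99 or above in 14 ovaries, and low in replicates 1 and 3 of WT rats with olaparib. Ptgfr, the receptor for the prostaglandin that ends luteal life, was not well above background in replicate 3 of WT rats with olaparib (-7.15) and lay between -4.26 and 1.90 in the others. Between olaparib and vehicle in WT rats Akr1c3 differed by -4.42 (95% interval -8.72 to -0.11; limma adjusted p 0.958), by -1.94 without WT olaparib replicate 3 and by 0.24 without the 6 arrays with oviduct signal. In that comparison 9 of the 10 luteal differences lay below 0 (median -0.38), where 39.1% of all features lay above 0. Ptgfr differed by 2.32 between BRCA1+/- and WT with olaparib, which was 0.81 without WT olaparib replicate 3, 3.83 without WT olaparib replicate 4, and reversed to -1.65 without the 6 arrays. Cdkn1b differed by -0.87 and Scarb1 by -0.58 (-0.38 without BRCA1+/- vehicle replicate 3) between BRCA1+/- and WT with vehicle. For Ptgfr and Scarb1 the 95% interval held 0.

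WT olaparib replicate 3 stood apart in some of these genes. The mean of the 10 luteal genes, each centred over all arrays, was -2.82 there and -0.99 to 0.91 in the other ovaries. Their summed level was 8.9 to 10.58 in the other ovaries and within that range, at 9.04, in WT olaparib replicate 3. Star, which carries cholesterol into steroid synthesis and was chosen after its values were seen, read 0.52 there and 5.38 to 7.17 in the other 15 ovaries. A2m, a luteal protease inhibitor also chosen after its values were seen, was at -1.92 there, its lowest value. In the same ovary Ereg was not well above background, Areg was lowest at -4.06, and Ptgs2 was highest at -0.60 with an oviduct score of 3.27.

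**Figure D4:**
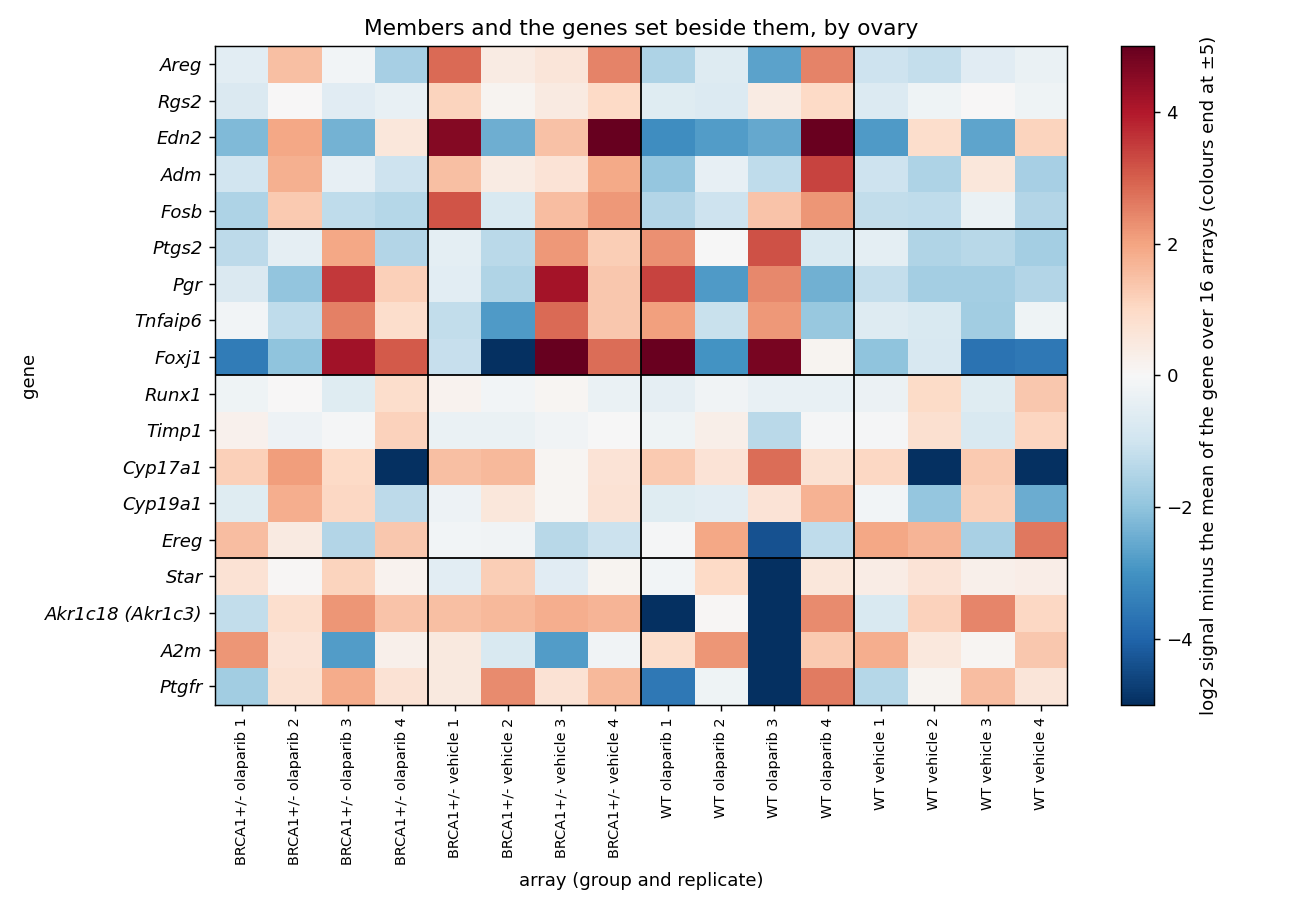
Log2 signal of 18 genes minus the mean of each gene over the 16 arrays (colour, ending at ±5), with genes down the page and ovaries across, in order of group and replicate. The upper block is Areg and Rgs2 with Edn2, Adm and Fosb, the next Ptgs2, Pgr and Tnfaip6 with the cilia gene Foxj1, then Runx1 and Ereg with steroid synthesis genes and Timp1, and last Star with luteal genes. WT olaparib replicate 3 is dark blue in all 4 genes of the last block.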

How the data were processed

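Ovary RNA of 16 rats was measured on single-colour Agilent arrays. Per the labels' protocols, RNA was prepared with the RNeasy Mini kit and labelled with Cy3, and spots were read with Agilent Feature Extraction 10.7. The processed signal is an intensity which, per the file headers, was background-subtracted and detrended by the authors' software, and positions follow rn4. For one alternative the spot means and local backgrounds of the same files were used, which per the file headers are intensity values before correction. The authors' deposited table holds log2 values, which were analysed, and which differed from log2 of the processed signal by one constant per array, with the 75th percentile at 0. The flags for signals well above background, saturated spots and outliers are the scanner software's, per the file headers.

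Of 45598 non-control probes 12 were left out for outlier flags. A probe was kept if some group had 3 or more of its 4 arrays well above background (26808 probes), and a gene was read by its probe with the highest mean. Probes were named by accession, symbol or older symbol through a RefSeq gene table. Limma 3.58.1 in R 4.3.3 was fitted on 20430 features, with 4 group means over 16 arrays and 12 residual degrees of freedom, and tests were two-sided. The fit was checked on simulated data. A call needed a Benjamini-Hochberg adjusted p under 0.05 over all features. SD is the spread of 4 arrays, and the number of arrays limits the precision.

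The 10 genes and the 15 lists were chosen with earlier results of these data known. Named beside the 10 genes are Brca1, up to 4 genes per pathway list with the smallest unadjusted p, the marker lists, and the 3 genes most like each tested gene by Pearson r; other names were chosen after their values were seen and are stated as such. For olaparib against vehicle in BRCA1+/- rats, same-numbered ovaries deviated together in all 4 pairs (r 0.57, 0.57, 0.71 and 0.39). The labels give no pairing of animals. In all 4 pairs the olaparib ovary deviated most like the same-numbered vehicle ovary. Replicates 3 and 4 of both BRCA1+/- groups were on slide 2 and had oviduct signal, and replicates 1 and 2 were on slide 1 without it. Same-numbered ovaries also shared a row of their slide, so a pairing cannot be told apart from the position of the arrays. Alternatives were other scalings, background corrections, filters and probes, slide and replicate blocks, array weights, single slides, left-out arrays and, added after seeing the data, omission of the 6 arrays with oviduct signal. The summed level of the marker lists over all arrays ran on the log2 scale from 2.71 to 4.62 for oocyte, 1.09 to 5.77 for adipocyte, 4.14 to 6.34 for macrophage and 3.36 to 7.51 for mesothelium and surface epithelium markers.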

Additional observations from a re-analysis of the deposited data

Results flagged for a closer look

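In each group of 4 ovaries the highest and lowest value of 27 genes was compared with the nearest of the others (108 groups). By Dixon's criterion, which chance alone meets in about 1 of 20 groups, 6 values stood apart, so their number is near that rate. Edn2 and S100a9 were chosen after their values were seen, and the rate does not apply to them. Among the 10 genes the only such value was Btc in WT olaparib replicate 2, at -7.88 with the nearest at -6.56, all of them not well above background. Cyp17a1 read -1.92 in BRCA1+/- olaparib replicate 4, with the nearest at 4.62, and S100a9 read 1.39 in the same ovary, with the nearest at -1.39. Edn2 read 3.48 in WT olaparib replicate 4, with the nearest at -4.05. Fosb read -2.33 in BRCA1+/- olaparib replicate 2, with the nearest at -4.88. Brca1 read 0.19 in WT olaparib replicate 3, with the nearest at -0.72.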

How the results depend on the processing

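No alternative called any of the tested genes among the 10 in any of the 5 comparisons, so that all 148 recomputed counts were the same, and leaving out each array in turn gave 0 calls throughout. With every array required to be well above background, only Areg, Ptx3, Rgs2 and Runx1 were tested. Over all features 1 call was made, for olaparib in BRCA1+/- rats without WT olaparib replicate 4. The ovary with the highest value was unchanged for 8 of the 10 genes with normexp (not Btc and Has2) and for 7 with quantile normalization (not Btc, Has2 and Ptx3). Only Ptgs2, Rgs2 and Runx1 have another probe, and of these 3 genes 1 (Ptgs2) kept its highest ovary on the others. With the replicate block, 0 of the 8 genes were called in every comparison. Outside olaparib in BRCA1+/- rats, same-numbered ovaries did not deviate together in every pair. There r ran from -0.07 to 0.29 for olaparib in WT, -0.03 to 0.16 for genotype with vehicle and -0.37 to 0.45 for genotype with olaparib. Of single-gene differences, 970 kept their direction and 2 reversed, both without the 6 arrays with oviduct signal. These were Akr1c3 for olaparib in WT rats (0.24, against -4.42 with all arrays) and Ptgfr for BRCA1+/- against WT with olaparib (-1.65, against 2.32), and the cause was not tested. Signal over background limits Btc, Pgr, Has2, Tnfaip6, Ptgs2 and Ereg, whose order among dim arrays is not measured. Ptgs2 and Ereg were each dim on 3 arrays, for Ptgs2 2 of them WT vehicle arrays.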
